A study of Mus musculus with 24 samples.

Results

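The nuclear-encoded oxidative phosphorylation genes were examined in the medial prefrontal cortex (mPFC) of mice at postnatal day 21 (P21). They were taken as every row of both expression tables whose symbol starts with Nduf, Uqcr, Sdha, Sdhb, Sdhc, Sdhd, Cox4 to Cox8 or Atp5. Of 98 such symbols, 94 reached a mean of 10 normalized counts in the male table and in the female table, out of 24972 genes listed. The other 4 were Ndufs5, Cox7b2, Cox8b and Cox8c.

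The 24 libraries came from male MO, male SAL, female MO and female SAL offspring, with 6 in each group. MO offspring were born to and nursed by dams given morphine sulfate (10 mg/kg under the skin once a day), and SAL offspring to dams given saline, with treatment running from the week before mating, through pregnancy and lactation, to weaning. All offspring were B6D2F1/J hybrids of a C57BL/6J mother and a DBA/2J father and were labelled wild type, and only the dams were injected. Per the study's methods small litters were merged after birth and 1 offspring per litter and sex was taken, so male and female libraries can be littermates, and which ones are is not given in the sources used here.

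Polyadenylated RNA of bulk tissue was sequenced with a directional kit, so fewer cells of a type and less RNA per cell cannot be told apart. The values are the authors' normalized counts, which were scaled separately for males and females. The labels fitted the sex-linked genes, with Ddx3y at 850 to 1063 normalized counts in male libraries and at most 1.11 in female ones. Neuronal and cortical glutamatergic markers were detected in every library. Library PFC1 (female MO) had all 8 oligodendrocyte, all 9 astrocyte and all 8 striatal projection neuron markers at their highest of 12 libraries, with summed oligodendrocyte markers at 306910 normalized counts against a median of 63465 in the other 11. PFC1 also had 6 of 10 neuronal markers at their lowest. PFC16 (male SAL) had all 8 striatal markers at their highest. Counts and medians over the members are given with and without PFC1 in females and PFC16 in males.

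Oxidative phosphorylation is the last stage of respiration in mitochondria. Complex I (NADH dehydrogenase) and complex II (succinate dehydrogenase) pass electrons to ubiquinone, complex III hands them to cytochrome c, complex IV (cytochrome c oxidase) reduces oxygen, and complex V (ATP synthase) uses the proton gradient that complexes I, III and IV build. A few core subunits of complexes I, III, IV and V are encoded in mitochondrial DNA, and all other subunits and the assembly factors are nuclear genes. Neurons rely on this pathway to power ion pumping and synaptic transmission. No mitochondrially encoded gene was listed in the tables used here, so only the nuclear side was measured.

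By symbol, 46 members belonged to complex I, 8 to complex II, 8 to complex III, 15 to complex IV and 17 to complex V. These counts include assembly factors (the Ndufaf and Sdhaf genes), Ndufa4 and its paralog Ndufa4l2, which were grouped under complex I by their names although the Ndufa4 protein is known as a complex IV subunit, and Atp5s, whose current RefSeq symbol is Dmac2l and which is known as an assembly-related factor.

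Promoter-window sequences of 4 members that followed the others closely in at least one table are shown first. Ndufs7 did so in males only, with a correlation of 0.978 there and 0.651 in females. The shared variation between libraries is the pattern the results turn on. RefSeq promoter windows (GRCm38.p6, from 250 bases before the gene's start to 50 after it) were matched for 77 of the 94 members in 82 windows. Capitals mark the letters GCATGCG (from the NRF1 motif, for a factor known to activate respiratory genes), CCGGAAG (from ETS-family sites, bound by GABP), ATGGCGG (from the YY1 motif), CCAAT and TATAAA, found on either strand, and overlapping matches run together. The windows are Cox6b1 at chr7:30626065-30626364 (minus strand), Uqcr11 at chr10:80406772-80407071 (minus strand), Ndufs7 at chr10:80249199-80249498 (plus strand) and Cox6a1 at chr5:115348909-115349208 (minus strand).
Cox6b1: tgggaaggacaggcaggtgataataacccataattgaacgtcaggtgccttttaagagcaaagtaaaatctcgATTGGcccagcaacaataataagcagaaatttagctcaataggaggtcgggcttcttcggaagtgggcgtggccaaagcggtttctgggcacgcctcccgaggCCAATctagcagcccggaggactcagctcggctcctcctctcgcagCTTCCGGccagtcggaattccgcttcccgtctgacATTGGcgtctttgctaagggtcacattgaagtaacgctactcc
Uqcr11: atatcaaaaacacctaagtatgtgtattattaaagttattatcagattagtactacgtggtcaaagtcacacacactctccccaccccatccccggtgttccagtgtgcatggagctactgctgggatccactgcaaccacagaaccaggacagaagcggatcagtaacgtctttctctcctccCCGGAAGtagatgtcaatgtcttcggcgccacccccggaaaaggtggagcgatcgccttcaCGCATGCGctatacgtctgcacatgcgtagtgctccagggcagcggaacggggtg
Ndufs7: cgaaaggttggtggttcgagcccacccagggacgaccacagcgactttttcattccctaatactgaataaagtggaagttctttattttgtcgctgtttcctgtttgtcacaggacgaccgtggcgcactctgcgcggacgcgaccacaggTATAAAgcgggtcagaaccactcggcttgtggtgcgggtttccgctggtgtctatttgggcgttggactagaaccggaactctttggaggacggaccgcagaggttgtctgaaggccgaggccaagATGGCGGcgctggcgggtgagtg
Cox6a1: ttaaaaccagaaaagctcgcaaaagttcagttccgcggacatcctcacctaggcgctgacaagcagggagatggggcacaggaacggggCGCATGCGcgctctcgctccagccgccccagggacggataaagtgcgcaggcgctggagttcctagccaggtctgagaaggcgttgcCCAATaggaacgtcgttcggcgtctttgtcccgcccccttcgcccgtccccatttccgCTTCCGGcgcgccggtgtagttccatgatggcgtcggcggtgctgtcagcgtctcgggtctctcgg

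All but the Ndufs7 window held the ETS letters once, the Uqcr11 and Cox6a1 windows held the NRF1 letters on both strands in 1 overlapping run, and the Ndufs7 window held the YY1 letters and a TATAAA. Over the members, 15.9% of windows held the NRF1 letters, 25.6% the ETS letters and 17.1% the YY1 letters, beside 3.58%, 8.86% and 4.05% of all 32851 windows of the same length. CCAAT was in 42.7% of member windows and 37.4% of all windows, and TATAAA in 8.54% and 13.6%. The 2 windows below belong to Sdha and Atp5s, which varied least with the others in one of the tables, Sdha in females and Atp5s in males, with Sdha at chr13:74350191-74350490 (minus strand) and Atp5s at chr12:69724695-69724994 (plus strand), and they are shown for contrast.
Sdha: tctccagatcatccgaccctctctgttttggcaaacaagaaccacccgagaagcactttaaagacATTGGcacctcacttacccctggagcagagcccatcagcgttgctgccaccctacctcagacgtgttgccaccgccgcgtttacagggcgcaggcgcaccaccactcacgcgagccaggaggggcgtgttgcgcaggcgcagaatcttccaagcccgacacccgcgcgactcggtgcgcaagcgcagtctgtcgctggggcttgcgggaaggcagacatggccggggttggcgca
Atp5s: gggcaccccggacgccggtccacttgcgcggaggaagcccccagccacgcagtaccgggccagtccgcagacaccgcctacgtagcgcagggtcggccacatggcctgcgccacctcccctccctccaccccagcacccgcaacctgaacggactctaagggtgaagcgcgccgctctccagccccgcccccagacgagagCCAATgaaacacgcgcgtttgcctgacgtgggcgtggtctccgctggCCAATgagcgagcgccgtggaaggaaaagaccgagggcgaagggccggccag

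Neither window held the NRF1, ETS or YY1 letters, which says only that these exact letters were not in these 300 bases. Members with any of the 3 motifs and members without one varied with the rest to a like degree. The 38 members with a match had a median correlation with the mean of the other members of 0.897 in males and 0.902 in females, and the 39 without had 0.875 and 0.906.

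The 94 members made up between 1.39% and 1.60% of all normalized counts in male MO libraries, against 1.33% and 1.52% in male SAL libraries. In females the shares were 1.43% to 1.95% in MO, against 1.38% to 1.76% in SAL. The ranges overlapped in both sexes. Per kilobase of transcript, complex IV had the highest median level, at 4636 normalized counts per kilobase in males and 5243 in females. By symbol complex II had the lowest, at 511 and 535, but its 8 members include the Sdhaf assembly factors. In males these had 80.1 (Sdhaf1), 226 (Sdhaf2), 11.96 (Sdhaf3) and 490 (Sdhaf4). The subunits had 2605 (Sdha), 1993 (Sdhb), 532 (Sdhc) and 1231 (Sdhd), beside a median of 1632 over the complex I members.

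Cox4i1, the main isoform of the subunit that begins complex IV assembly, had the highest level per kilobase (14911 in males and 16880 in females). It was followed by Cox8a (13149 and 15092), the smallest nuclear complex IV subunit, and by Atp5b (10771 and 10889), the catalytic beta subunit of ATP synthase. Sdhaf3, an assembly factor of complex II, was the lowest with a length (11.96 and 12.24). These are means over the 12 libraries of a table, and levels were not compared between tables because the tables were scaled separately.

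Isoform sets were dominated by the ubiquitous form. Cox4i1 stood at 14911 normalized counts per kilobase in males against 28.5 for Cox4i2, the isoform known from lung and low-oxygen settings. Cox6a1 had 8994 against 113 for Cox6a2, the heart and muscle form, which in brain is known from interneurons. Cox6b1 had 7647 against 24.8 for Cox6b2, known from testis. Cox7a2 had 4636 and Cox7a2l, a factor that joins respiratory complexes into supercomplexes, had 2258, against 46.9 for Cox7a1, the muscle form. Ndufa4 had 6563 and Ndufa4l2, its hypoxia-induced paralog, 33.8. Female values gave the same order within each of these sets, with 16880 against 31.4 per kilobase for Cox4i1 and Cox4i2.

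Atp5g1, Atp5g2 and Atp5g3 encode the same mature c-ring protein of ATP synthase. Per kilobase Atp5g3 was highest (6087 in males and 6382 in females), Atp5g2 had 2071 and 2168, and Atp5g1 1095 and 1136. Of the stretches of 85 bases in Atp5g2 transcripts, 35.3% also occurred in other annotated genes, so its value is uncertain. Ndufb4c had every such stretch in common with Ndufb4, and Ndufs5 fell below the limit, at a mean of 8.31 normalized counts in males and 9.80 in females, while BC002163, a gene of partly shared sequence at chr16:42955631-42955949 (GRCm38), held 1534 to 2036 normalized counts in males of the MO group, against 1461 to 1867 in males of the SAL group. Of the stretches of 85 bases in BC002163, 55.3% occur in Ndufs5 transcripts, and of those in Ndufs5 14.2% occur in BC002163, and how reads were divided between them was not tested.

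In males, the question was whether members differed between MO and SAL offspring. None of the 94 passed an adjusted p of 0.05 (limma on log2(value + 1), Benjamini-Hochberg adjustment over 16662 genes), as 0% of all genes did, and the smallest adjusted p of a member was 0.9997. At an unadjusted p under 0.05, 2 members were higher in MO and 0 were lower, where 1.33% of all genes tested were higher and 1.52% lower. Differences were small and mostly on one side of 0. The median log2 difference (MO minus SAL) was 0.064 over the members and -0.00023 over all genes, and 86 of 94 members had a difference above 0, where 49.8% of all genes did. Members vary together between libraries, as described below, so these 94 directions are not 94 separate measurements. In 0 of 94 members did the groups not overlap, where 0.042% of all genes had every MO library above and 0.018% every MO library below the SAL libraries.

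Ndufaf2, an assembly factor of complex I, had 250, 282 and 314 normalized counts (lowest, median and highest) in male MO libraries, against 231, 245 and 273 in male SAL libraries. The groups overlapped, and all 6 MO libraries lay above the SAL mean. The log2 difference was 0.17 (SE 0.072, 95% interval 0.023 to 0.33, 2-sided exact permutation p = 0.0346, n = 6 each), and its limma adjusted p was 0.9997. Uqcr10, a small subunit of complex III, had 1579, 1782 and 1991 normalized counts in male MO libraries, against 1432, 1663 and 1754 in male SAL libraries. Its groups overlapped too, where 5 of the 6 MO values exceeded the SAL mean, a log2 difference of 0.14 (SE 0.061) and an exact permutation p of 0.0801. Without PFC16 neither had an unadjusted limma p under 0.05, with log2 differences of 0.15 for Ndufaf2 and 0.097 for Uqcr10, and 0 members were higher at that threshold, with 75 of 94 above 0 and a median of 0.039. The count of higher members was 9 without PFC10 or without PFC20, 6 without PFC11 and 5 without PFC9. The shares of all genes past that threshold in the fits with 1 library left out are not given here.

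In females, none of the 94 members passed the adjusted threshold either (16717 genes, 0% of all genes, smallest adjusted p of a member 0.918). At an unadjusted p under 0.05, 0 members were higher in MO and 1 was lower, where 1.81% of all genes were higher and 1.12% lower. The median log2 difference was 0.052 over the members and 0.0018 over all genes, with 65 of 94 members above 0 and 50.5% of all genes. Without PFC1 the median over the members was -0.0028, with 46 of 94 above 0 and 51.9% of all genes. After rescaling to Gapdh and Ppia 6 members were higher and 0 lower at the unadjusted threshold. That rescaling also put the median log2 difference of all genes in females at 0.091. The share of all genes past the threshold under it is not given here.

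The 1 lower member was Ndufaf6, a factor known to be needed for the assembly of complex I. It had 81.0, 83.4 and 88.7 normalized counts in female MO libraries, against 89.5, 95.7 and 105.1 in female SAL libraries. All 6 MO libraries lay below all 6 SAL libraries. The mean was 84.4 ± 3.2 in MO and 96.7 ± 5.5 in SAL (SD, n = 6 each), with a log2 difference of -0.19 (SE 0.086, limma unadjusted p = 0.0414, adjusted p = 0.918). The exact permutation p of 0.00216 is the smallest that 6 against 6 can give, and of all genes tested in females 0.0718% had every MO library below every SAL library and 0.0598% every MO library above. Over all leave-one-out fits the difference stayed between -0.21 and -0.17, and 8 of 12 of them had an unadjusted p over 0.05. In males Ndufaf6 had 68.8, 79.9 and 99.5 normalized counts in MO libraries, against 67.2, 83.6 and 89.2 in SAL libraries, and its log2 difference was 0.0070. The difference between the sexes (-0.20, SE 0.13) had an adjusted p of 0.9997.

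Over both tables, with sex as a term, 0 of 94 members passed the adjusted threshold (16502 genes). At an unadjusted p under 0.05, 2 were higher and 0 lower, beside 2.48% and 2.25% of all genes, and 74 of 94 were above 0, beside 50.2% of all genes. Ndufaf2 had a log2 difference of 0.12 (SE 0.059) and Ndufaf8, another complex I assembly factor, which was named after its values were seen, had 0.18 (SE 0.084), both with an adjusted p of 0.839. Littermates of both sexes were treated as independent in that fit. The difference between the sexes was past the unadjusted threshold in 0 of 94 members, beside 2.01% of all genes.

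Markers of other cell types differed between the groups in places, in females largely through PFC1. Summed oligodendrocyte markers had 39621, 68781 and 141800 normalized counts in male MO libraries, against 46576, 57871 and 80713 in male SAL libraries, and all 8 had a log2 difference above 0 (median 0.24, or 0.30 without PFC16). In females the sums were 46722, 65159 and 306910 in MO libraries, against 31551, 77210 and 139180 in SAL libraries, with all 8 above 0 (median 0.28), but with 3 of 8 above 0 and a median of -0.020 without PFC1. All 9 female astrocyte markers were above 0 (median 0.21), and 7 of 9 without PFC1 (0.035). Microglial and striatal markers were above 0 in 8 of 8 each in females, and in 3 and 1 of 8 without PFC1. Neuronal markers were above 0 in 1 of 10 in females (median -0.12, or -0.070 without PFC1) and cortical glutamatergic markers in 1 of 8 (2 of 8 without PFC1).

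Blood and vessel markers kept their direction without these libraries. Blood markers were above 0 in 5 of 6 in males (median 0.46, or 0.37 without PFC16) and in 6 of 6 in females (0.76, or 0.54 without PFC1), and in males 2 of them were higher and 1 lower at an unadjusted p under 0.05. Endothelial markers were above 0 in 6 of 6 in females (0.17, or 0.088 without PFC1), with 2 higher at that threshold, Pecam1 and Flt1. In males the endothelial markers lay the other way, with 2 of 6 above 0 (median -0.023, or -0.014 without PFC16). None of these lists had a marker past the adjusted threshold in limma, no neuronal, astrocyte or oligodendrocyte marker was at 0 in any library, and their part in the members' differences was not tested.

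**Figure D1:**
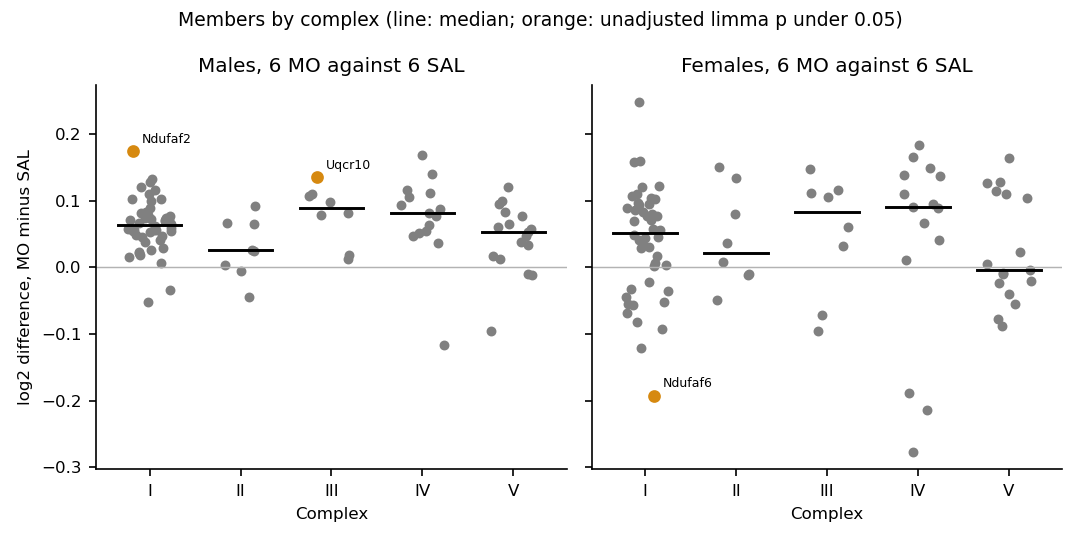
The log2 difference between MO and SAL (MO minus SAL) is plotted for each of the 94 members by complex, in males on the left and in females on the right, with a line at each complex's median. In males 86 of 94 points lie above 0 and in females 65 of 94, and the labelled orange points had an unadjusted limma p under 0.05, of which none passed adjustment.

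By complex, the median log2 difference in males was 0.064 for complex I, 0.026 for complex II, 0.090 for complex III, 0.082 for complex IV and 0.053 for complex V. In females the medians were 0.052, 0.022, 0.083, 0.090 and -0.0040 in the same order. Without PFC1 the female medians were -0.0028, -0.010, 0.024, 0.019 and -0.029, so those of complexes I and II changed sign, and without PFC16 the male medians were 0.041, -0.0043, 0.062, 0.043 and 0.035. Mean levels gave another sign in places. For complex IV in females without PFC1 the mean level was -0.081 in MO and -0.020 in SAL, and for complex V in females the mean difference was 0.026 (-0.013 without PFC1). Without PFC1 the mean differences of complexes I and II in females were 0.00089 and 0.031, and without PFC16 that of complex II in males was 0.016. All 8 complex III members lay above 0 in males and 6 of 8 in females, and 14 of 15 complex IV members did in males and 12 of 15 in females (9 of 15 without PFC1). Ranges of single members ran between log2 -0.12 and 0.17 in males and between -0.28 and 0.25 in females.

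In males 4 abundant subunits had narrow intervals around 0. Atp5b had 19923, 20418 and 21819 normalized counts in male MO libraries, against 20186, 20428 and 21704 in male SAL libraries. Its log2 difference was -0.010 (95% interval -0.089 to 0.069). Sdha, the flavoprotein subunit of succinate dehydrogenase that holds the active site, had 7485, 7545 and 7606 in male MO libraries, against 7300, 7545 and 8078 in male SAL libraries, with a difference of -0.0059 (-0.079 to 0.067). The MO and SAL ranges of Atp5b overlapped almost wholly, and the MO range of Sdha was the narrower and lay inside its SAL range. Ndufs1, the largest subunit of complex I, differed by 0.016 (-0.054 to 0.086), and Atp5a1, the alpha subunit of ATP synthase, by -0.012 (-0.092 to 0.068).

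Among 1 subunit of each complex that is often used on protein blots, Ndufb8 differed by 0.063 in males (95% interval -0.087 to 0.21), Sdhb by 0.025 (-0.10 to 0.15), Uqcrc2 by 0.019 (-0.061 to 0.099), Cox4i1 by 0.063 (-0.057 to 0.18) and Atp5a1 by the value above. In females the differences were 0.090 for Ndufb8 (-0.13 to 0.31), -0.0097 for Sdhb (-0.15 to 0.13), -0.096 for Uqcrc2 (-0.25 to 0.054), 0.11 for Cox4i1 (-0.14 to 0.36) and -0.087 for Atp5a1 (-0.26 to 0.081). All 10 intervals held 0. Over the members the 95% interval lay within a log2 difference of 0.25 to either side of 0 in 71 of 94 in males and in 40 of 94 in females, and differences inside an interval were not detectable with these libraries.

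The isoform sets showed no member past the threshold in either table. Cox8a came nearest in males, at 7049, 7317 and 8339 normalized counts in MO libraries, against 5934, 6931 and 7682 in SAL libraries. Its log2 difference was 0.11 (SE 0.058, exact permutation p = 0.119), and all 6 MO libraries lay above the SAL mean. Cox4i2, Cox7a1 and Ndufa4l2 had the largest gaps between the sexes' differences. Cox4i2 differed by 0.14 in males and -0.28 in females, Cox7a1 by 0.17 and -0.19, and Ndufa4l2 by 0.13 and -0.093. Their means lay between 17.1 and 32.8 normalized counts in every group, and no difference between the sexes had an adjusted p below 0.9997.

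The spread between libraries of a group was larger than the difference between the group means. A level per library was taken as the mean over the 94 members of log2(value + 1) minus the gene's mean over the 12 libraries of its table. In males it ran from -0.078 to 0.149 in MO libraries (mean 0.030 ± 0.10, SD, n = 6) and from -0.164 to 0.070 in SAL libraries (mean -0.030 ± 0.084). In females it ran from -0.180 to 0.25 in MO libraries (mean 0.019 ± 0.15) and from -0.171 to 0.146 in SAL libraries (mean -0.019 ± 0.14). The groups overlapped in both sexes. Because members are not replicates, no p was computed for this level.

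**Figure D2:**
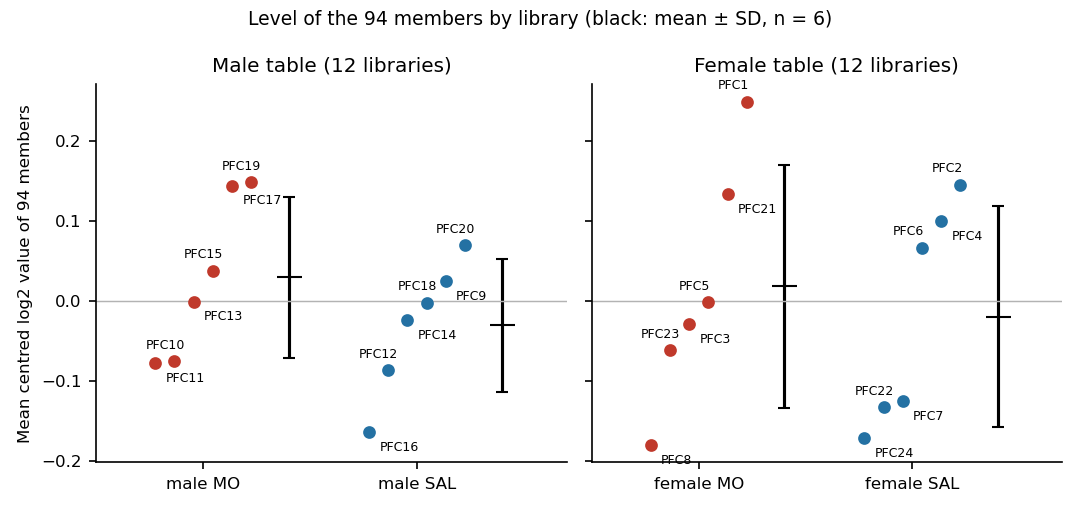
Each point is 1 library, and the vertical axis is the mean over the 94 members of the log2 value minus the gene's mean over its table, with MO left of SAL in each sex and the group mean ± SD in black. Libraries of every group lie on both sides of 0, PFC1 (female MO) is the highest at 0.25 and PFC8 (female MO) the lowest at -0.180.

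The whole module moved together in single libraries. In males, 88 of 94 members lay above their own table median in PFC17 and 86 in PFC19 (both MO), and 77 in PFC20 (SAL). Only 11 did in PFC10 and 12 in PFC11 (both MO), and 9 in PFC12 and 7 in PFC16 (both SAL). In females the count was 81 in PFC1 and 88 in PFC21 (both MO), and 90, 77 and 87 in PFC2, PFC4 and PFC6 (SAL), but 9 in PFC8 (MO) and 11, 11 and 8 in PFC7, PFC22 and PFC24 (SAL). Over all genes with a mean of at least 10 the same share stayed between 48.6% and 50.9% in each library. DESeq2 scaling keeps that share nearly level by design, so it is only a baseline. Other short genes moved with the same libraries, as described below.

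**Figure D3:**
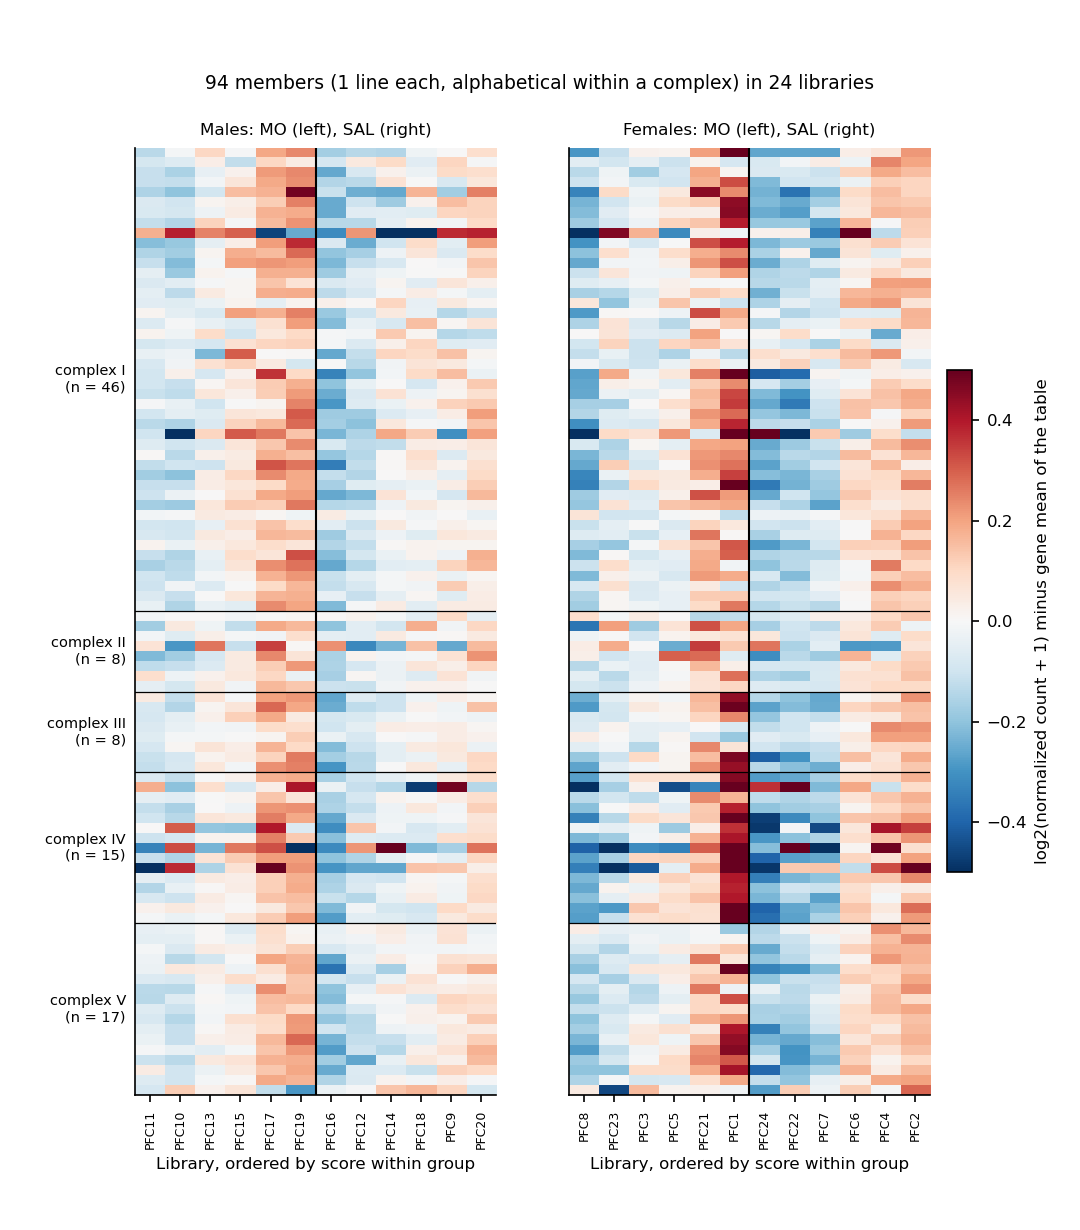
Each line is 1 of the 94 members, grouped by complex, and each column 1 library, with MO left of SAL in each sex. Colour gives the log2 value minus the gene's mean over its table. Values past 0.5 to either side are drawn at the end of the scale. Whole columns such as PFC19, PFC16 and PFC24 are nearly of 1 colour across all 5 complexes. PFC1 is mixed by transcript length. There 52 of 55 members under 1000 bases lie above their table means, but only 11 of 20 members of 1500 bases or more.

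The first principal component of the members held 55.7% of their variance in males and 62.9% in females. Over all genes with a mean of at least 10 it held 18.8% and 33.6%, or 21.9% in females without PFC1. Without PFC16 the male share of the members was 53.7%, and without PFC1 the female share was 55.5%. After rescaling each library to Gapdh and Ppia the male share was 28.2%. The median Pearson correlation between 2 members over the 12 libraries was 0.711 in males and 0.683 in females, against -0.0022 and -0.0016 between 2 genes of the whole table. These correlations are descriptions, because members share the libraries, their depth and their normalization.

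Shared variation was present within each group. In males the median correlation was 0.784 among the 6 MO libraries and 0.678 among the 6 SAL libraries. In females it was 0.713 among MO and 0.858 among SAL libraries. Over the 11 female libraries of both groups without PFC1 it was 0.714. By complex, over all 12 libraries of a table, it was 0.725 for complex I, 0.249 for complex II, 0.812 for complex III, 0.644 for complex IV and 0.753 for complex V in males. In females it was 0.682, 0.394, 0.666, 0.769 and 0.777 in the same order. Complex II, which here includes the Sdhaf assembly factors, stood lowest in both tables. Its members differed in how they followed the mean of the other members. In males the correlation was 0.939 for Sdhb, 0.908 for Sdhd, 0.450 for Sdhc and -0.041 for Sdha. It was 0.720 for Sdhaf1, 0.663 for Sdhaf2, 0.231 for Sdhaf3 and 0.787 for Sdhaf4.

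Single members followed the rest to different degrees. The correlation of a member with the mean of the other 93 had a median of 0.878 in males and 0.899 in females, and it was over 0.5 in 79 and in 76 of 94 members. In males it was highest for Cox4i1 (0.984), for Ndufs7, a core subunit of complex I that carries an iron-sulfur cluster (0.978), and for Ndufa11, a membrane subunit of complex I (0.965). In females it was highest for Cox6b1, a complex IV subunit on the intermembrane side (0.984), for Atp5h, a subunit of the ATP synthase stalk (0.974), and for Uqcr11, a small complex III subunit (0.972).

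The values of Cox6b1 show the size of this variation. It had 4325, 5081 and 6705 normalized counts in female MO libraries, against 4133, 4946 and 5895 in female SAL libraries. Uqcr11 had 2046, 2551 and 3500 in female MO libraries, against 2071, 2416 and 2766 in female SAL libraries. The groups overlapped for both genes, and the log2 differences between MO and SAL were 0.066 (SE 0.11) for Cox6b1 and 0.11 (SE 0.12) for Uqcr11, or -0.0088 and 0.025 without PFC1.

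The members that followed the rest least were Atp5s (-0.466), Ndufa4l2 (-0.179) and Ndufs1 (-0.171) in males and Sdha (-0.109), Ndufaf4, a complex I assembly factor (-0.075), and Ndufaf6 (-0.067) in females. For Sdha the 2 female groups ran opposite ways. Over the 6 MO libraries its correlation with the other members was -0.921, and over the 6 SAL libraries 0.901. Uqcrc2, a core subunit of complex III, showed the same, with -0.940 over MO and 0.944 over SAL libraries. Without PFC1 the correlation over the remaining 11 female libraries was 0.195 for Sdha and 0.518 for Uqcrc2. Those values pool MO with SAL, so they do not show what the MO libraries do without PFC1. Among the MO libraries other than PFC1, Sdha was highest in PFC8 (7972, members' level -0.180) and lowest in PFC21 (6839, level 0.134). Uqcrc2 had the same order at these ends, with 4610 in PFC8 and 4206 in PFC21. In PFC1 Uqcrc2 stood at 3947 normalized counts, the lowest of the 12 female libraries, and Sdha at 6905, above PFC21 alone (6839), whereas Cox6a1 stood at 9400 and Cox8a at 12361, the highest of the 12 for both.

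Transcript length moved with this pattern. The median correlation with the other members was 0.905 in males and 0.921 in females over the 55 members with transcripts under 1000 bases, and 0.691 and 0.50 over the 20 members with transcripts of 1500 bases or more. Median log2 differences between MO and SAL also ran with length, at 0.077 in males and 0.090 in females under 1000 bases and at 0.021 and -0.038 from 1500 bases. Without PFC16 the male medians were 0.044 and 0.016, and without PFC1 the female ones were 0.022 and -0.036. The female correlation of the long members was 0.72 without PFC1. In PFC1 the members under 1000 bases averaged 0.36 above their table means and those of 1500 bases or more 0.041, and in PFC16 the averages were -0.21 and -0.074.

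**Figure D4:**
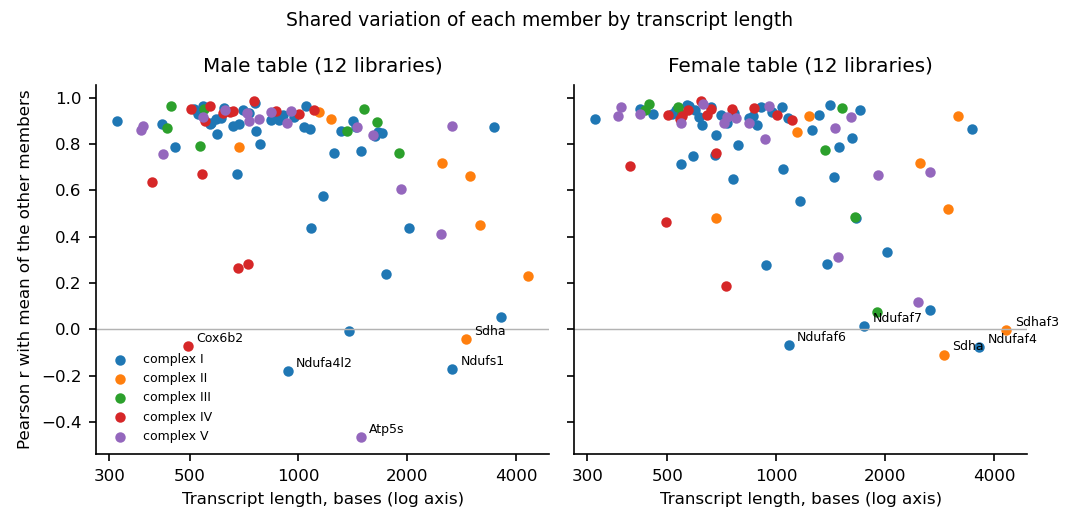
The correlation of each member with the mean of the other members over the 12 libraries of a table is plotted against its transcript length on a log axis, coloured by complex, with the 5 lowest members labelled in each table. Most short members lie near 0.9 (medians 0.905 in males and 0.921 in females under 1000 bases), but 2 of 55 lie below 0 in males. Long ones spread down to below 0, such as Sdha at -0.041 in males and -0.109 in females. The lowest male member, Atp5s (-0.466), has 1485 bases.

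Genes outside the pathway moved with the same libraries. Over other genes with transcripts under 1000 bases (607 in males and 618 in females, ribosomal protein genes left out), the median level was 0.185 in PFC19 and -0.186 in PFC16, and 0.243 in PFC1 and -0.173 in PFC8. Over genes with transcripts above 4000 bases it was -0.084 in PFC19 and 0.113 in PFC16, and -0.170 in PFC1 and 0.086 in PFC8. With ribosomal protein genes kept in (690 genes in males and 701 in females under 1000 bases), the correlation of a non-member with the members' mean had a median of 0.694 in males and 0.641 in females, and -0.438 and -0.457 above 4000 bases. The share of non-members with a log2 difference between MO and SAL above 0 was 82.6% in males and 72.5% in females under 1000 bases, and 30.1% and 42.7% above 4000 bases. Without PFC16 the male shares were 72.2% and 43.4%, and without PFC1 the female shares were 59.2% and 56.6%. The members under 1000 bases had 53 of 55 above 0 in males (49 without PFC16) and 46 of 55 in females (34 without PFC1). Neither the part of transcript length in the members' differences nor that of RNA quality was tested. The study's methods give RNA integrity numbers as a range over the samples and not by library.

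**Figure D5:**
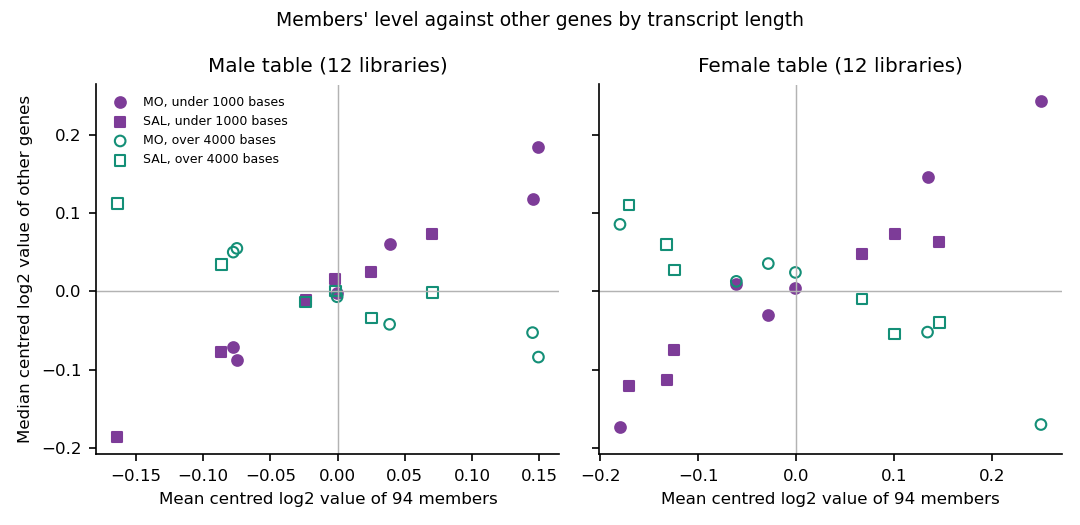
Each library is drawn with its members' level on the horizontal axis and the median level of other genes on the vertical axis, filled purple for transcripts under 1000 bases and open green for those above 4000 bases, circles for MO and squares for SAL. The short genes rise with the members' level and the long genes fall, in both tables, as in PFC19 (MO, short 0.185, long -0.084) and PFC16 (SAL, short -0.186, long 0.113).

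Cytosolic ribosomal protein genes also varied together. Their list level ran from -0.119 to 0.208 in male MO libraries, against -0.184 to 0.106 in male SAL libraries. In females it ran from -0.253 (PFC8) to 0.523 (PFC1) in MO libraries, against -0.304 to 0.085 in SAL libraries, and it was 0.024 in PFC21, where the members' level was 0.134. Their median pairwise correlation was 0.860 in males and 0.951 in females. Mitochondrial ribosomal protein genes had 0.549 and 0.470, and glycolysis genes 0.531 and 0.784. Genes of the tricarboxylic acid cycle, which feeds the chain with electrons, had 0.015 and 0.443. Complex IV was raised more than the other complexes in PFC1, at 0.525 above its table mean against 0.207 for complex I, 0.078 for complex II, 0.234 for complex III and 0.210 for complex V. The part of the glial and striatal markers of PFC1 and PFC16 in these levels was not tested.

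An estimate of depth was lowest or highest in some of the libraries with extreme levels. The summed values of a library were divided by its commonest low value, taken as the value of 1 read. This estimates reads assigned to genes and not all reads sequenced. The estimate gave 13500000 to 16300000 reads for male MO libraries, against 13800000 to 20200000 for male SAL libraries. It gave 13300000 to 17200000 for female MO libraries, against 14600000 to 16300000 for female SAL libraries. Among male libraries PFC19 (MO, 13500000 reads) was the shallowest by this estimate and the highest in the members' level, and PFC12 (20200000) and PFC16 (19700000, both SAL) were the 2 deepest and the 2 lowest. In females PFC8 was the deepest (17200000 reads) and lowest, and PFC21 the shallowest (13300000) at a level of 0.134. Other libraries did not follow, such as PFC14 (male SAL, 13800000 reads), at -0.024, and PFC24 (female SAL, 15000000), at -0.171. The part of depth was not tested.

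The columns of 11 libraries carry the suffix combined, whose meaning is not given in the sources used here. Among male libraries without it (4 MO and 5 SAL) the members' level differed by 0.124 between MO and SAL, and among those with it (2 MO and 1 SAL) by -0.101. Among female libraries without it (2 MO and 2 SAL) the difference was 0.188, and among those with it (4 MO and 4 SAL) -0.037. Over all libraries it was 0.060 in males, or 0.033 without PFC16, and 0.038 in females, or -0.0083 without PFC1. These differences are values with no test, and some rest on arms of 1 or 2 libraries. A term for the suffix in the limma fit gave 4 members higher in males at an unadjusted p under 0.05, instead of 2. The part of the suffix in the members' level was not tested.

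The other genes of the pathway gave few nominal differences, to be read against the 1.33% of all genes higher and 1.52% lower in males at that threshold, and 1.81% and 1.12% in females. Of 9 complex I assembly genes outside the symbol rule, 1 was higher at an unadjusted p under 0.05 in males, Foxred1 (log2 difference 0.11, SE 0.052, exact permutation p = 0.0108, n = 6 each), and 0 in females. None of 7 further complex III genes, 21 complex IV assembly genes, 6 further ATP synthase genes or 13 tricarboxylic acid cycle genes passed it in either table. Cyc1, the cytochrome c1 subunit of complex III, differed by 0.034 in males and -0.049 in females, and Cycs, cytochrome c, by 0.029 and 0.0019. Of 78 mitochondrial ribosomal protein genes, 2 were higher in males (Mrpl34 at 0.18 and Mrpl41 at 0.14) and 0 in females, and of 84 cytosolic ones 2 were higher in males (Rpl39 and Rps14) and 1 lower in females (Rps27). None of these passed adjustment.

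Of 15 regulators of nuclear respiratory genes, 1 had an unadjusted p under 0.05 in each table, and it was the same gene, where 1.52% of all genes were lower in males and 1.81% higher in females. Gabpb2, a subunit of the GABP factor that binds ETS sites, had 65.6, 76.6 and 96.7 normalized counts in male MO libraries, against 81.3, 92.0 and 111.5 in male SAL libraries. In females it had 73.7, 85.2 and 118.3 in MO libraries, against 61.3, 67.8 and 84.0 in SAL libraries. The groups overlapped in both sexes. Its log2 difference was -0.25 (SE 0.12) in males and 0.31 (SE 0.13) in females, and the test of the difference between the sexes gave an unadjusted limma p of 0.0039 and an adjusted p of 0.9997, where 2.01% of all genes had an unadjusted p under 0.05. Gabpa, the DNA-binding subunit, differed by 0.0028 in males and 0.19 in females, Nrf1 by 0.12 and -0.20, Tfam, a factor of mitochondrial DNA transcription, by 0.035 and 0.10, and Ppargc1a, the coactivator of mitochondrial biogenesis, by 0.029 and 0.00049.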

How the data were processed

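RNA of the mPFC was sequenced in 24 libraries, 12 in a male and 12 in a female table. Per the labels and the study's methods the authors aligned directional poly(A) reads to mm10 with STAR, quantified RefSeq transcripts with Salmon and scaled them with DESeq2. The deposited values are these normalized counts per gene, a signal that is not whole-number counts. Reads assigned to genes in a library are therefore known only as an estimate. Values were tested with limma 3.58.1 (R 4.3.3, trended empirical Bayes) on log2(value + 1), with genes left out where the 12 values added up to less than 10, with Benjamini-Hochberg adjustment over all genes at 0.05. A fold change on this scale understates changes of low genes. Models were fitted in males, in females, over both with a sex term, and for the difference between the sexes. Exact permutation tests used all 924 relabellings (2-sided). The fits were tested on simulated data. Python 3.11.15, numpy 2.4.6, pandas 2.3.3, SciPy 1.17.1 and matplotlib 3.10.9 were used.

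Groups came from the sample labels. Each library is 1 offspring, and p-values measure the spread between these offspring. Members and gene lists were chosen with earlier results of these data known. Named members were those with an unadjusted p under 0.05 in a table, the highest and lowest of each complex, isoform sets, 1 commonly blotted subunit a complex, the 3 highest and 3 lowest correlations with the other members in each table, and the 3 with the largest gap between the sexes. Further genes were up to 2 a list by the same p, and a few set genes. Transcript lengths are medians of GENCODE vM21 transcripts with a RefSeq match. Alternatives were the pseudocount, the filter, sample weights, a term for the suffix, 2 rescalings and leaving out each library. The values of lists, complexes and length classes without PFC1 or PFC16 were added after seeing the data. Mitochondrially encoded genes were not analysed here.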

Additional observations from a re-analysis of the deposited data

Results flagged for a closer look

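Of 136 groups of named members examined for a single library far from the other 5, 6 had one, and chance alone gives about 1 in 20. All 6 were in female MO libraries. In PFC1 Cox8a stood at 12361, Cox6a1 at 9400 and Cox6a2 at 111 normalized counts, each far above the other female MO libraries, and Atp5a1 stood far below them at 14132. In PFC21 Atp5g1 was far above the others at 3604, and in PFC23 Atp5s was far below them at 144.0. PFC1 is also the library with the highest oligodendrocyte, astrocyte, microglia and striatal markers, whose part in these values was not tested.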

How the results depend on the processing

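No member passed the adjusted threshold under any alternative run. Members higher in males at an unadjusted p under 0.05, 2 as reported, were 0 with sample weights, 4 with a term for the suffix, 1 after rescaling to Gapdh and Ppia, and 0 to 9 with 1 library left out (0 without PFC16, PFC17 or PFC19, 9 without PFC10 or PFC20). In females 0 higher became 6 after that rescaling and 0 to 3 with 1 library left out (3 without PFC8). The count of 1 lower became 0 after that rescaling and 0 to 1 with 1 library left out. The shares of all genes under these alternatives are not given here. The Gapdh and Ppia rescaling put the median log2 difference of all genes at 0.091 in females, -0.027 in males and 0.11 in the difference between the sexes, and the share of member variance on the first component in males to 28.2% (51.7% to 58.9% with 1 library left out, 55.5% to 67.5% in females). The median log2 difference of the members ranged between 0.032 and 0.090 in males and between -0.0028 and 0.094 in females with 1 library left out. The cause of these changes was not tested.

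Signs turned for small differences. With sample weights males had -0.023 for Atp5g1, -0.0022 for Atp5g2, -0.0046 for Atp5g3, -0.037 for Ndufaf6 and -0.011 for Sdhb, and females -0.029 for Atp5h and -0.0063 for Cox6b1. After the Gapdh and Ppia rescaling males had -0.015 for Atp5g1, -0.011 for Atp5g3, -0.020 for Ndufaf6, -0.011 for Ndufs1, -0.0023 for Sdhb and -0.0080 for Uqcrc2, and females 0.0037 for Atp5a1, 0.036 for Atp5b, 0.050 for Atp5g1, 0.087 for Atp5g2, 0.068 for Atp5g3, 0.014 for Atp5s, 0.023 for Ndufa11, 0.0097 for Ndufs1, 0.042 for Sdha and 0.081 for Sdhb.

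With 1 library left out, ranges that crossed 0 in males were -0.030 to 0.00089 for Atp5a1, -0.027 to 0.0034 for Atp5b, -0.033 to 0.041 for Atp5g1, -0.0069 to 0.064 for Atp5g2, -0.010 to 0.040 for Atp5g3, -0.19 to 0.011 for Cox6b2, -0.053 to 0.052 for Ndufaf6, -0.016 to 0.013 for Sdha, -0.016 to 0.053 for Sdhb and -0.0036 to 0.033 for Uqcrc2. In females they were -0.097 to 0.00087 for Atp5g1, -0.069 to 0.033 for Atp5g2, -0.058 to 0.013 for Atp5g3, -0.019 to 0.065 for Atp5h, -0.14 to 0.0064 for Atp5s, -0.051 to 0.13 for Cox6a2, -0.0088 to 0.12 for Cox6b1, -0.19 to 0.019 for Ndufa4l2, -0.022 to 0.070 for Ndufs7 and -0.043 to 0.017 for Sdhb. No paired analysis was possible because library numbers are not shared between groups and littermates are not given in the sources used here.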

Other observations

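Genes of the steps that feed the chain gave values of their own. In females 1 of 17 glycolysis genes had a log2 difference (MO minus SAL) above 0, with a median of -0.13 (1 of 17 and -0.079 without PFC1), where 50.5% of all genes were above 0. In males 7 of 17 did, with a median of -0.0096 (2 of 17 and -0.025 without PFC16), where 49.8% of all genes were above 0. Of 13 tricarboxylic acid cycle genes 3 were above 0 in females (median -0.066, or -0.056 without PFC1) and 8 in males (median 0.019, or 0.012 without PFC16). None passed an unadjusted p of 0.05 in limma. Both Gapdh and Ppia, often used to scale expression, differed in females by -0.12 and -0.058, and in males by -0.0080 and 0.062.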
